A study of Mus musculus with 6 samples.

Results

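Translation factors are the proteins that start, extend and end the synthesis of a protein on the ribosome. Their genes were followed here in leading-edge keratinocytes taken by laser capture from wounds in mouse skin. The genes were taken by symbol: the initiation factors (Eif), the elongation factors (Eef1 and Eef2) and Naca, Btf3, Etf1 and Pabpc1, leaving out the eIF2 kinases and the eIF4E-binding proteins. This gave 59 genes with 71 probe sets, out of 19938 genes on the array. Where a gene had several probe sets, the brightest stood for it. The symbol rule also took in genes that act on the factors, such as the eEF2 kinase gene Eef2k and the methyltransferase genes of the elongation factors.

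The diabetic group held 3 samples from mice made diabetic by a diet high in fat and fructose, begun at 8 weeks of age and kept up for 16 weeks. The normal group held 3 samples from mice kept on a control diet for as long. All wounds were taken 3 days after wounding, and the tip keratinocytes of a sample were collected by laser capture from its fixed sections into 1 tube. The titles call the 3 samples of a group biological replicates, and the sources used here give no strain, sex or blood glucose and do not say whether each sample was a different mouse. The p-values therefore reflect variation among these 6 samples. Values are log2 probe set signals, differences are diabetic minus normal with limma's standard error (SE), and n = 3 arrays per group throughout. Olfactory and vomeronasal receptor genes served as blanks, and their 95th percentile on each array, from 1.98 to 2.12, is used below as a background limit. A gene at or under it has a bound on its level and no more.

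Initiation begins when eIF2 brings the initiator tRNA to the small ribosomal subunit, which eIF1, eIF1A, eIF3 and eIF5 help to assemble, while the eIF4 factors bind the cap of the mRNA and unwind its leader. eIF2B recharges eIF2 with GTP, and phosphorylation of eIF2 in stress slows this step. eEF1 then delivers aminoacyl-tRNAs, eEF2 moves the ribosome along, and eRF1, made from Etf1, reads the stop codon. Many of these mRNAs, like those of ribosomal proteins, are regulated by nutrients and insulin through mTOR, and keratinocytes that leave rest to close a wound make large amounts of new protein.

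Starts of 5 of the genes are printed. They are both genes for eEF1A, Eif3d and Naca, which had an unadjusted p under 0.05 in limma, and Eef2 as the other main elongation factor. Eif6, Etf1 and Eif3e, which also had such a p, have no sequence shown here. Each line runs 5′ to 3′ from 50 bases before the RefSeq transcript start through the first 20 bases of the transcript, on GRCm38.p6. Capitals mark matches, on either strand, to CACGTG (an E-box, bound by MYC), TATAAA, TGACGTCA (a cAMP response element), GGGCGG (a GC box) or CCGGAAGT (an ETS core). No matches overlap in the printed windows.
Eef1a1 (chr9:78481705-78481774, minus strand): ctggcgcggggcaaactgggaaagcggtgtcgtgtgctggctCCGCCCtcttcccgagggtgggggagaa
Eef1a2 (chr2:181156996-181157065, minus strand): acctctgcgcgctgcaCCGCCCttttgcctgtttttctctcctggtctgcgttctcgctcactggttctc
Eif3d (chr15:77970805-77970874, minus strand): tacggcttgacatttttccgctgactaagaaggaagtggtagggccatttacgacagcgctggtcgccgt
Naca (chr10:128035296-128035365, plus strand): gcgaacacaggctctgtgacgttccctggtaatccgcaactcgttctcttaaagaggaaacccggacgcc
Eef2 (chr10:81176581-81176650, plus strand): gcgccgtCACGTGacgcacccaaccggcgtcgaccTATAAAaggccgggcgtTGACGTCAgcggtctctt

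Both eEF1A genes showed a GC box within the 50 bases before the start, while Eef2 held an E-box, a TATAAA and a cAMP response element. The printed stretches of Eif3d and Naca had no match. In the wider windows counted further below, from 250 bases before the start to 50 after, Eif3d had a GC box and an ETS core, and Naca had no match.

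The tissue label was checked against markers. Of 15 keratinocyte markers, 3 (Itgb4, Krt15 and Sfn) exceeded the background limit on every array and 6 on none. E-cadherin (Cdh1), by which the cells were located, was under the limit on every array, and the basal keratin genes Krt5 and Krt14 were each above it on 2 arrays. The summed linear level of the 15 was 62.4 to 69.5 on diabetic arrays and 66.0 to 78.0 on normal arrays, which overlap. Of the 15, 6 were higher and 9 lower in diabetic samples, with 0 adjusted calls. Cdh1 (difference -0.16) and the junction gene Perp (-0.25) were lower on each diabetic array than on any normal array (all genes 5.66%). The basal regulator gene Trp63, at -0.31 (adjusted p 0.887), had an unadjusted p of 0.0425 in limma. Among all genes 2.92% were lower at an unadjusted p under 0.05. Krt14 (0.23) and Krt5 (0.19) were higher in diabetic samples, with overlapping groups. Of 20 skeletal muscle markers, 6 exceeded the limit everywhere and 6 nowhere, with sums of 101.8 to 108.5 on diabetic and 93.5 to 100.1 on normal arrays, which do not overlap. Of these 20, 15 were higher and 5 lower in diabetic samples, with 0 adjusted calls. Diabetic arrays lay wholly above normal arrays for 4 (all genes 5.02%) and below for 0 (all genes 5.66%). In limma 2 of them, Myh2 (0.35) and Myot (0.27), were higher at an unadjusted p under 0.05 (all genes 2.64%), and 0 were lower (all genes 2.92%). Fibroblast sums (11 genes, 5 above the limit everywhere and 4 nowhere) were 61.0 to 70.4 on diabetic and 59.6 to 64.5 on normal arrays. Sums of neutrophil and macrophage markers (15 genes, 1 above the limit everywhere and 11 nowhere) were 47.4 to 49.4 on diabetic and 47.9 to 54.8 on normal arrays. The part of these cells in the differences below was not tested, and in tissue samples of this kind fewer cells of a type and less RNA per cell cannot be told apart.

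Translation factor genes were mostly dim, though brighter than the average gene. Of the 59, 17 (28.8%) exceeded the background limit on every array and 19 (32.2%) on none, where the shares over all genes were 17.4% and 51.5%. On the diabetic arrays 34, 30 and 28 of them exceeded the limit, and on the normal arrays 25, 25 and 26. The limit itself was lowest on diabetic arrays 1 and 2, at 1.98 and 2.01, against 2.11 to 2.12 on the other arrays. The share of all genes above it was 35.3%, 36.6% and 29.4% on diabetic arrays and 27.4%, 28.4% and 28.7% on normal arrays.

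With limma over all genes, 0 of the 59 passed an adjusted p under 0.05, as for all genes (0%). The smallest adjusted p among them was 0.780. At an unadjusted p under 0.05 there were 7 members (11.9%), against 5.56% of all genes. Of these, 3 were higher in diabetic samples, Eef1a1, Eif3d and Naca (all genes 2.64%), and 4 were lower, Eif6, Etf1, Eef1a2 and Eif3e (all genes 2.92%). The ordinary linear model without variance moderation also made 0 adjusted calls and put 4 members under an unadjusted 0.05 (all genes 5.2%). Over the 59 genes the median difference was 0.0079, and over all genes it was -0.0039. In direction, 30 members (50.8%) were higher and 29 lower in diabetic samples, where 48.7% of all genes were higher. Diabetic and normal values were fully separated for 10 members (16.9%), against 10.7% of all genes. Diabetic arrays lay above in 6 of these, Eef1a1, Eif3d, Naca, Eif4h, Eef1akmt3 and Eif2d (all genes 5.02%), and below in 4, Eif6, Etf1, Eef1e1 and Eif4a2 (all genes 5.66%). Naca alone combined an unadjusted p under 0.05 with at least a 1.5-fold difference (all genes 0.256%), and this count of 1 depended on single arrays. It was 0 without diabetic replicate 1 (all genes 0.286%) and 0 without normal replicate 2 (all genes 0.547%). It was 2 without diabetic replicate 2 (Eif4a3 and Naca, all genes 0.426%). Without normal replicate 1 it was also 2 (Eef1a2 and Eif3e in place of Naca, all genes 0.351%).

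**Figure D1:**
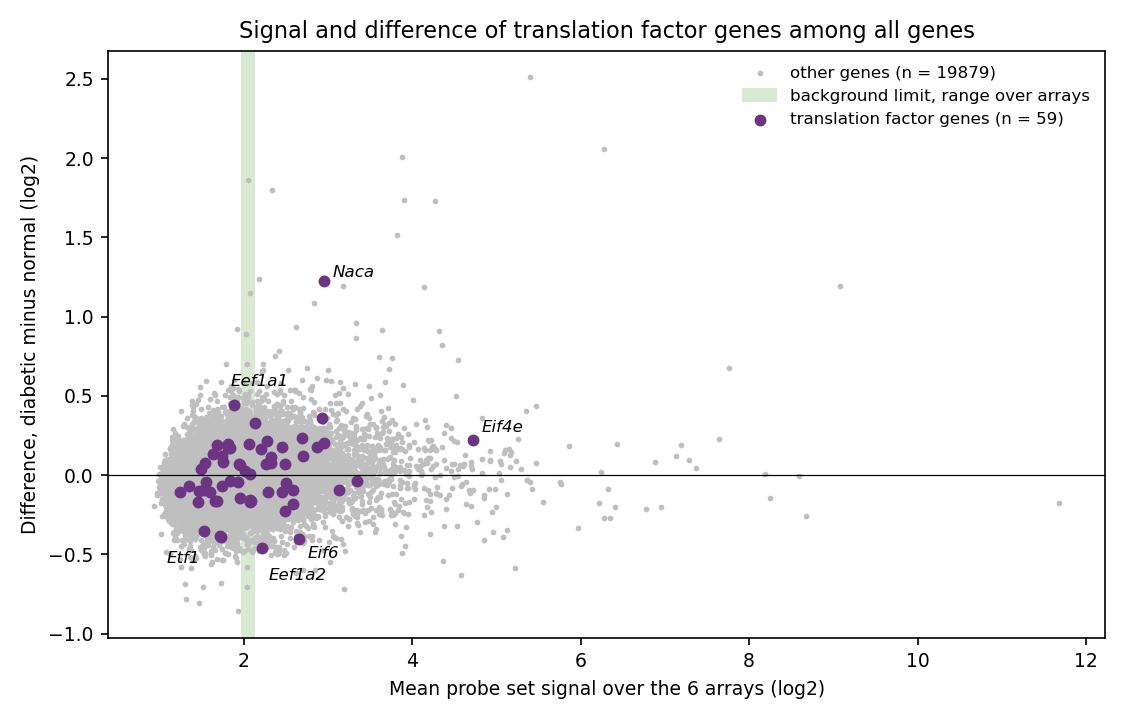
Each point is a gene, with its mean signal over the 6 arrays on the x axis and its difference, diabetic minus normal, on the y axis, both in log2 units. The 59 translation factor genes (purple) lie among the other genes (grey) on both sides of 0, many of them at or left of the band that shows the background limit (1.98 to 2.12), with Naca at 1.23 standing above the rest of the factors.

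The 95% confidence interval stayed inside a 1.5-fold change, up or down, for 45 of the 59 genes (all genes 90.9%) and inside 2-fold for 57 (all genes 99.6%). The 2 exceptions to the wider bound were Naca and the helicase gene Eif4a3. These intervals describe array signal, and for genes at background they do not bound differences in RNA.

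**Figure D2:**
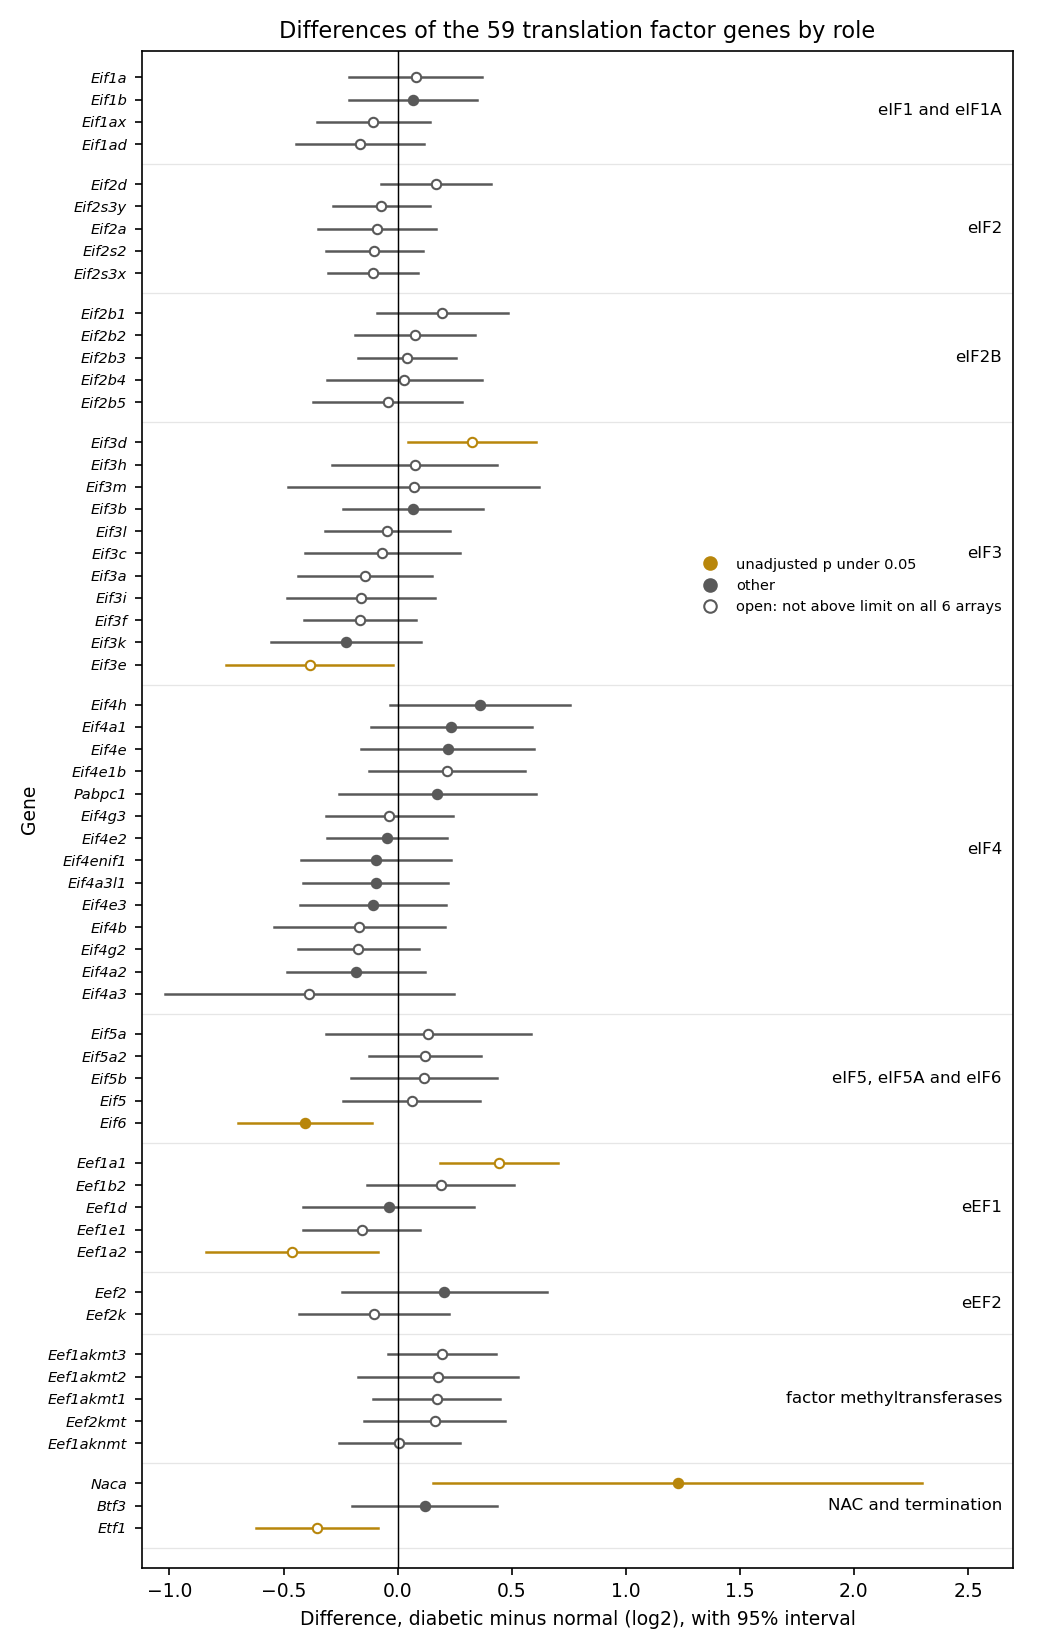
Difference of each gene, diabetic minus normal in log2 units, with its 95% interval, grouped by role. Ochre marks an unadjusted p under 0.05 (7 genes) and open circles mark genes not above the background limit on all 6 arrays (42 genes); no role group lies wholly apart from 0 by its intervals.

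The ternary complex and its recharging factor came first in the order of initiation. The 5 measured genes of the eIF2 group, the 2 copies of the gamma subunit gene (Eif2s3x and Eif2s3y), the beta subunit gene Eif2s2 and the alternative initiators Eif2a and Eif2d, were under the background limit on every array. Their median difference was -0.091, with a range of -0.11 to 0.17. Eif2d, which can deliver tRNA without eIF2, was at 1.92, 1.82 and 2.01 on diabetic arrays and 1.69, 1.75 and 1.80 on normal arrays. Its groups did not overlap by a narrow gap, and the difference was 0.17 (SE 0.11, adjusted p 0.906). The alpha subunit gene Eif2s1, the target of the stress kinases, was not analysed here.

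All 5 subunits of eIF2B were measured, 4 higher and 1 lower in diabetic samples, with a median of 0.042. Eif2b1, the alpha subunit, was at 2.35, 1.93 and 2.18 on diabetic and 2.03, 1.93 and 1.92 on normal arrays. The groups overlapped at their lower ends, the difference was 0.20 (SE 0.13, adjusted p 0.908), and it was 0.097 without diabetic replicate 1. eIF1 and eIF1A hold the subunit open while it scans. Of the 4 genes grouped with them, Eif1a, Eif1ax, Eif1b and Eif1ad (whose nuclear product has an eIF1A-like domain), Eif1b alone was above the limit on all arrays. Their differences ran from -0.16 to 0.080.

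The scaffold eIF3 was measured by 11 of its subunit genes, 4 of them higher and 7 lower in diabetic samples, and the median was -0.066. Eif3d, a subunit that can itself bind the cap of some mRNAs, was at 2.43, 2.24 and 2.22 on diabetic arrays and 1.80, 2.01 and 2.10 on normal arrays. Every diabetic value lay above the normal ones and above the background limit of its array, and every normal value lay below that of its array. The limit was lower on diabetic arrays 1 and 2, at 1.98 and 2.01. Normal replicate 3 would exceed both, as would normal replicate 2, by a narrow margin for the second. The difference was 0.33 (SE 0.13, adjusted p 0.849). Eif3e was at 1.54, 1.62 and 1.40 on diabetic and 1.51, 2.27 and 1.95 on normal arrays. Normal replicate 1 fell among the diabetic values, and only normal replicate 2 exceeded the limit. The difference of -0.39 (SE 0.17, adjusted p 0.887) was -0.20 without normal replicate 2 and -0.59 without normal replicate 1. Eif3k, a small peripheral subunit, was at 2.49, 2.29 and 2.34 on diabetic and 2.50, 2.40 and 2.89 on normal arrays. Its difference of -0.23 (SE 0.15, adjusted p 0.908) was -0.080 without normal replicate 3. Subunits of this complex thus gave differences of opposite sign, from -0.39 to 0.33.

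**Figure D3:**
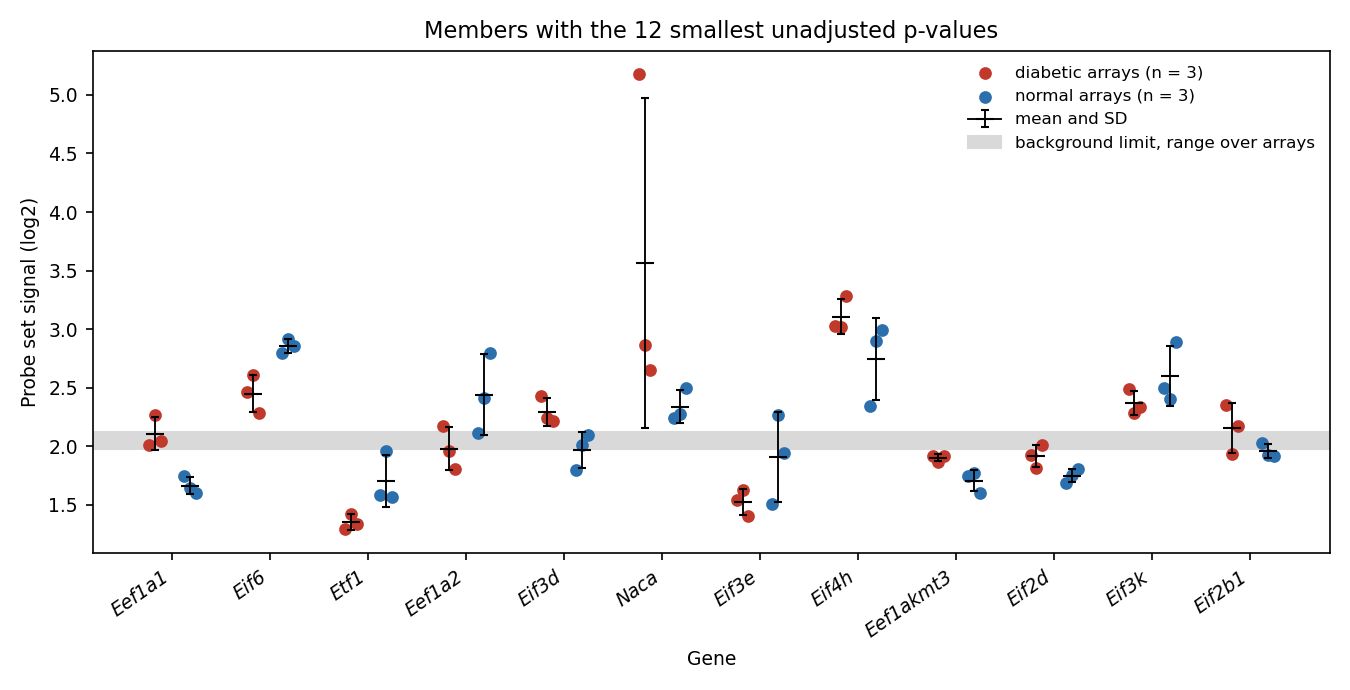
Signals on each array (log2, y axis) of the 12 translation factor genes with the smallest unadjusted p (x axis), diabetic arrays in red left of normal arrays in blue, with the mean and SD of the 3 arrays. The grey band is the background limit; Eif6, Naca, Eif4h and Eif3k lie above it on all arrays, and Naca has a single diabetic array at 5.18, with its other diabetic arrays at 2.86 and 2.65.

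The cap-binding and unwinding factors held 9 of the 17 genes above the limit throughout. Of the 14 genes in this group, 5 were higher and 9 lower in diabetic samples, and the median difference was -0.071. Eif4e, whose protein binds the cap, had the highest signal of all 59 genes, at 4.98, 4.74 and 4.78 on diabetic arrays and 4.48, 4.83 and 4.53 on normal arrays. Normal replicate 2 lay within the diabetic values, and the difference was 0.22 (SE 0.17, adjusted p 0.913). Eif4h, a cofactor of the helicase eIF4A, was at 3.03, 3.02 and 3.28 on diabetic and 2.34, 2.90 and 2.99 on normal arrays. The groups were separated by a gap smaller than their spread, the difference was 0.36 (SE 0.18, adjusted p 0.893), and without normal replicate 1 it was 0.16.

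The helicase genes themselves differed in sign. Eif4a1, the form of growing cells, was at 3.15, 2.61 and 2.67 on diabetic and 2.50, 2.70 and 2.52 on normal arrays, a difference of 0.23 (SE 0.16, adjusted p 0.911) that was 0.066 without diabetic replicate 1. Its paralog Eif4a2 was at 2.53, 2.41 and 2.54 on diabetic and 2.58, 2.56 and 2.90 on normal arrays. Diabetic values were all lower, by -0.18 on average (SE 0.14, adjusted p 0.911) and by -0.072 without normal replicate 3. Eif4a3l1, a copy of the exon junction helicase gene Eif4a3, differed by -0.096 (SE 0.15), and Eif4enif1, which carries eIF4E into the nucleus, by -0.094 (SE 0.15). Pabpc1, the poly(A)-binding protein that closes the mRNA loop through eIF4G, was at 3.40, 2.96 and 2.50 on diabetic arrays and 2.69, 2.86 and 2.78 on normal arrays. Diabetic values spread to both sides of the normal ones, and the difference of 0.17 (SE 0.20, adjusted p 0.933) was -0.047 without diabetic replicate 1.

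**Figure D4:**
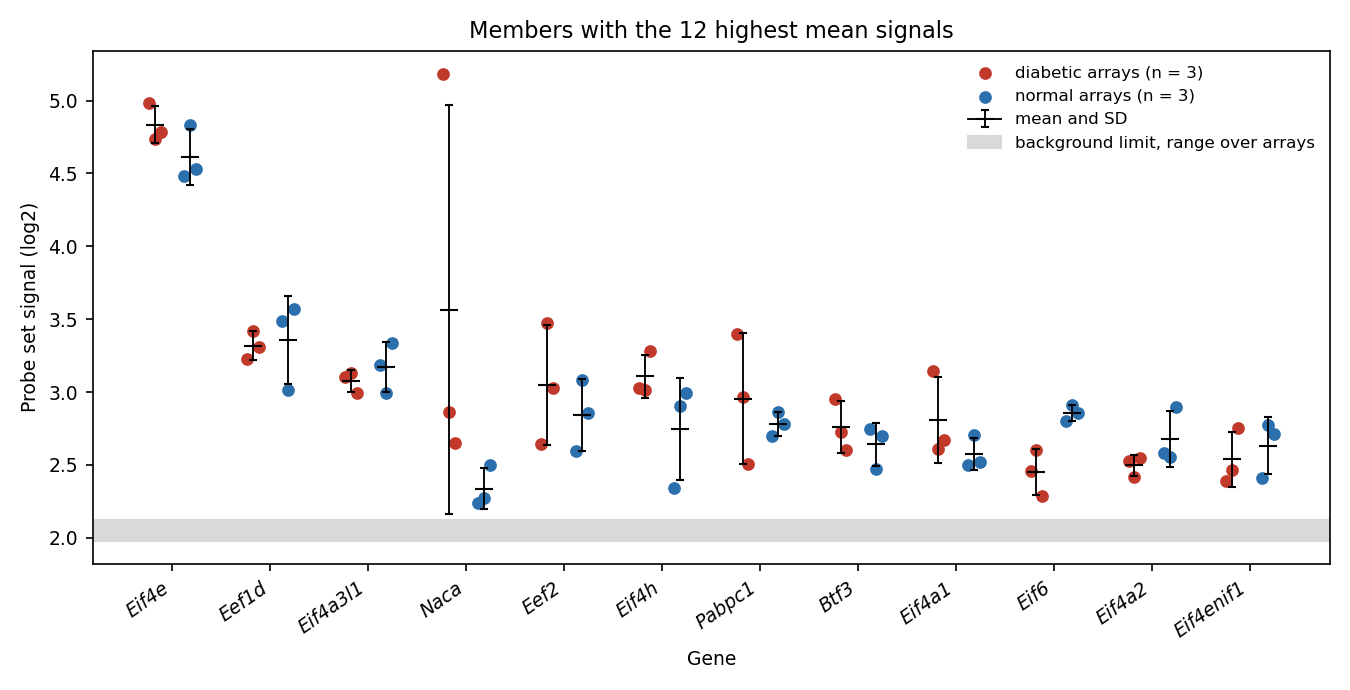
Signals on each array (log2, y axis) of the 12 brightest translation factor genes (x axis), diabetic arrays in red left of normal arrays in blue, with the mean and SD of the 3 arrays and the background limit as a grey band. All values lie above the band; the groups overlap for every gene except Naca, Eif4h, Eif6 and Eif4a2.

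Late factors of initiation held the second smallest p of the set. Eif6, which keeps the large ribosomal subunit from joining too early and is known to respond to insulin and growth factors, was at 2.46, 2.61 and 2.29 on diabetic arrays and 2.80, 2.91 and 2.85 on normal arrays. It was above background everywhere and lower on each diabetic array than on any normal array. The difference was -0.41 (SE 0.13, adjusted p 0.780) and stayed between -0.48 and -0.32 when any 1 array was left out. Its group partners Eif5, Eif5b, Eif5a and Eif5a2 differed by 0.062 to 0.14. Eif5a, the hypusine-bearing factor, was at 1.51, 2.16 and 1.43 on diabetic and 1.31, 1.41 and 1.98 on normal arrays. A single array of each group stood high, and the difference was 0.14 (SE 0.21, adjusted p 0.961).

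Elongation was led by the pair of eEF1A genes, whose signals differed in opposite directions. Eef1a1, the form of most tissues, was at 2.01, 2.27 and 2.05 on diabetic arrays and 1.74, 1.64 and 1.60 on normal arrays. Its groups did not overlap, and 2 diabetic and 0 normal arrays were above the limit. Diabetic replicate 1 passed the lower limit of its own array, 1.98, and would lie under the 2.11 to 2.12 of the normal arrays. The difference was 0.44 (SE 0.12, adjusted p 0.780) and lay between 0.36 and 0.49 without any 1 array. The mRNA of eEF1A is known as one of the most abundant in growing cells, while 4 of the 6 arrays read it at or under the limit. A further probe set listed for Eef1a1 together with Mir703 and D630045J12Rik read 4.48, 2.23 and 1.95 on diabetic and 2.07, 1.83 and 4.29 on normal arrays. It was high on 1 array of each group and differed by 0.16 (SE 0.85 in a fit over all probe sets).

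Eef1a2, the form known from muscle and neurons, was at 2.17, 1.96 and 1.81 on diabetic arrays and 2.11, 2.41 and 2.80 on normal arrays. Diabetic replicate 1 lay just above normal replicate 1, so the groups overlapped, and 1 diabetic and 3 normal arrays exceeded the limit. The difference of -0.46 (SE 0.17, adjusted p 0.839) was -0.28 without normal replicate 3. The summed skeletal muscle markers given above were higher on every diabetic array, with 15 of the 20 genes higher and 5 lower. A link between these markers and the signal of Eef1a2 was not tested.

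Other elongation genes gave small differences. Eef1d, a nucleotide exchange subunit and the second brightest gene of the set, averaged 3.32 ± 0.098 in diabetic and 3.36 ± 0.30 in normal samples (SD, n = 3), a difference of -0.040 (SE 0.17, adjusted p 0.986). Eef2, the translocase, was at 2.65, 3.47 and 3.03 on diabetic and 2.59, 3.08 and 2.86 on normal arrays. The groups overlapped, and the difference of 0.21 (SE 0.21, adjusted p 0.921) was -0.0064 when diabetic replicate 2 was left out and 0.41 when diabetic replicate 1 was. The 5 methyltransferase genes that modify eEF1A or eEF2 were all higher in diabetic samples, by 0.0079 to 0.19, with 0 at an unadjusted p under 0.05 in limma. Eef1akmt3 was at 1.92, 1.87 and 1.92 on diabetic and 1.75, 1.77 and 1.60 on normal arrays, a difference of 0.19 (SE 0.11, adjusted p 0.893), with all values under the background limit.

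Termination and nascent chain factors held the widest difference. Etf1, the stop codon reader, was at 1.29, 1.42 and 1.34 on diabetic and 1.58, 1.96 and 1.57 on normal arrays. All 6 values were under the limit and the groups did not overlap, and the difference of -0.35 (SE 0.12, adjusted p 0.809) was -0.23 without normal replicate 2. Naca and Btf3 encode the alpha and beta subunits of the nascent polypeptide-associated complex, which covers new chains as they leave the ribosome. Naca was at 5.18, 2.86 and 2.65 on diabetic arrays and 2.24, 2.27 and 2.50 on normal arrays. Its difference of 1.23 (SE 0.49, adjusted p 0.857) was 0.42 without diabetic replicate 1. Btf3 was at 2.95, 2.72 and 2.60 on diabetic and 2.75, 2.47 and 2.70 on normal arrays, and differed by 0.12 (SE 0.15, adjusted p 0.942), with overlapping groups.

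Probe sets of the same gene differed in level and, for some genes, in sign. Of the 59 genes, 10 had several, 22 probe sets in all. The second probe set of Naca read 3.32, 2.74 and 2.54 on diabetic and 2.31, 2.40 and 2.48 on normal arrays, again without overlap, and differed by 0.47 (SE 0.21 in the fit over all probe sets). The second of Btf3 read 2.60, 2.43 and 2.47 on diabetic and 2.22, 2.22 and 1.90 on normal arrays. Here the groups did not overlap, unlike in the brighter probe set, and the difference was 0.39 (SE 0.13). The other probe sets of Eif4e, above the background limit on 2 and 0 arrays, differed by -0.016 and -0.11. Those of Eif4a1, above it on 5 and 3 arrays, differed by 0.20 and 0.22.

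The genome place of these probe sets was gauged from their ID numbers, which run along chromosomes: for 97.0% of 21698 probe sets with a known gene, at least 3 of the 10 nearest IDs belonged to genes of the same chromosome. For 9 of the 71 factor probe sets none did. These were the probe sets that stood for Naca, Eif4a1, Eif5a, Eif4enif1, Eif2s2, Eif3m and Eif4e1b, and further probe sets of Eif4e (difference -0.11) and Eif4a1 (0.22). Naca lies on chromosome 10, and 8 of the 10 neighbours of its brightest probe set were genes of chromosome 12. Eif4a1 lies on chromosome 11, with 9 of 10 neighbours on chromosome 19. Whether near-identical copies elsewhere in the genome add to these signals was not tested, and the values of these genes are uncertain in that respect. With the probe set from the gene's own chromosome in their place, an alternative chosen after seeing the data, Naca differed by 0.47 (SE 0.18, adjusted p 0.838). The counts were then 7 members at an unadjusted p under 0.05 (all genes 5.57%) and 10 without overlap (all genes 10.7%), equal to those with the brightest probe sets. The count with at least a 1.5-fold difference as well was 0 (all genes 0.251%).

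**Figure D5:**
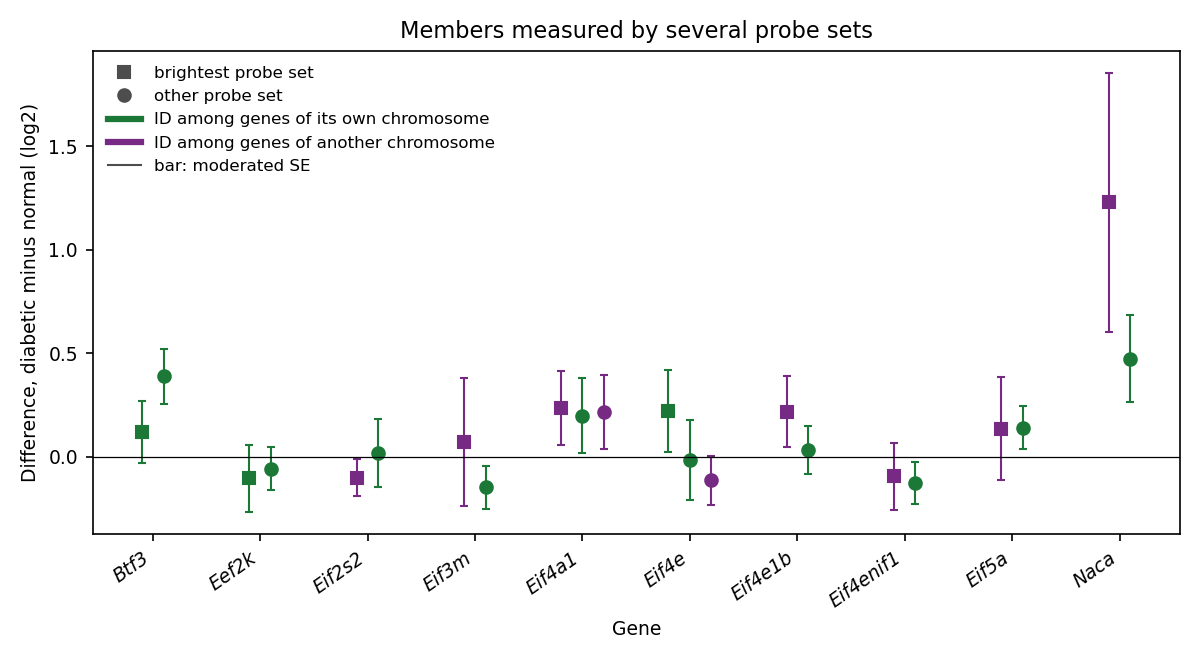
Differences, diabetic minus normal in log2 units (y axis), for each probe set of the 10 genes with several (x axis), with the moderated SE from the fit over all probe sets. Squares are the brightest probe set of a gene, and purple marks IDs that lie among genes of another chromosome; the squares and circles of Naca stand at 1.23 and 0.47.

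Promoter letters were compared for 45 of the 59 genes found in the RefSeq table of windows, 250 bases before to 50 after the start. CACGTG occurred in 12 of the 45 (26.7%), against 8.09% of the 27025 genes in the table, noncoding genes included. CCGGAAGT occurred in 9 (20%), against 4.31%, and GGGCGG in 32 (71.1%), against 38.2%. TATAAA was present in 4 (8.89%), against 15.7%, and TGACGTCA in 1, Eef2 (2.22%), against 2.03%. A run of at least 8 pyrimidines that opens with C was present within 50 bases of the start, on either side, in 21 (46.7%), against 32%. TOP mRNAs, whose translation follows mTOR, have a pyrimidine run at the transcript start. The search also took in bases before it, so the count does not measure TOP mRNAs. Of the TOP mRNAs listed below, Eef1a1, Eif3a, Eif3f and Eif2s3x had the run, and Eef1b2, Eef2 and Eif4b did not. The median difference in signal was 0.12 for the 9 genes with CCGGAAGT (7 higher, 2 lower) and -0.055 for the 36 without it. It was 0.094 for the 12 with CACGTG (8 higher, 4 lower) and -0.043 for the 33 without. For GGGCGG it was -0.018 in the 32 genes with it (16 higher, 16 lower) and 0.12 in the 13 without. For TATAAA it was -0.0012 in the 4 genes with it and 0.0079 in the 41 without. Genes with the pyrimidine run had a median of -0.044 and those without it 0.0455. These are descriptions without a test, and a match is not a shown binding site.

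Regulators and neighbours of the pathway, outside the symbol rule, made no adjusted calls. Among 27 measured stress kinases, eIF4E-binding proteins and mTOR pathway genes, 2 had an unadjusted p under 0.05 (all genes 5.56%), both higher in diabetic samples (all genes 2.64%), and the median difference was -0.024. Pdcd4, an inhibitor of eIF4A, was at 1.61, 1.51 and 1.76 on diabetic and 1.49, 1.30 and 1.34 on normal arrays. Ppp1r15a, which guides a phosphatase to eIF2, was at 1.82, 1.68 and 1.84 on diabetic and 1.51, 1.51 and 1.62 on normal arrays. Both had groups that did not overlap, under the background limit on all arrays, and differences of 0.25 (SE 0.11, adjusted p 0.887) and 0.23 (SE 0.11, adjusted p 0.889). Diabetic arrays lay wholly above normal arrays for 3 of the 27 (all genes 5.02%) and below for 0 (all genes 5.66%). The other gene of the 3 was Ppp1r15b, above the limit on all arrays, with a difference of 0.18 (SE 0.13, adjusted p 0.911).

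Release, recycling and rescue factors had 2 of 10 measured genes at an unadjusted p under 0.05, both lower in diabetic samples (all genes 2.92%), and a median of -0.065. Diabetic arrays lay wholly below normal arrays for 4 of the 10 (all genes 5.66%) and above for 1 (all genes 5.02%). Hbs1l, which with pelota frees stalled ribosomes, was at 1.30, 1.22 and 1.33 on diabetic and 1.67, 1.53 and 1.65 on normal arrays, a difference of -0.34 (SE 0.098, adjusted p 0.780). Abce1, which splits ribosomes after termination, differed by -0.23 (SE 0.10, adjusted p 0.889). Ltn1, a ubiquitin ligase for stalled chains, was at 2.25, 2.16 and 2.15 on diabetic and 2.51, 2.34 and 2.47 on normal arrays, a difference of -0.26 (SE 0.12, adjusted p 0.893). Of these 3, Ltn1 alone was above the limit on all arrays, and in each the groups did not overlap.

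Mitochondrial translation factors had 1 higher and 8 lower of 9 in direction (48.7% of all genes were higher), a median of -0.094, and 1 lower at an unadjusted p under 0.05 (all genes 2.92%). That gene, the initiation factor gene Mtif2, was at 1.37, 1.30 and 1.31 on diabetic and 1.62, 1.63 and 1.61 on normal arrays, under the limit throughout, and differed by -0.29 (SE 0.094, adjusted p 0.780). Of 13 other elongation and nascent chain factors, 0 passed an unadjusted p under 0.05 in limma, and their median was 0.0061. Of 15 measured TOP mRNAs, of which 11 are members above, 7 were higher and 8 lower in diabetic samples, with a median of -0.019. Eef1a1 (higher) and Eif3e (lower) had an unadjusted p under 0.05, where the shares of all genes were 2.64% and 2.92%.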

How the data were processed

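The authors deposited log2 signals of 35556 probe sets on each of 6 arrays. The submitters' processing notes name Partek. Their background correction, scaling and summarization steps were not given in the sources used here. The log base was taken from the values, and no further scaling was applied. Groups and replicate numbers came from the sample titles.

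In the platform annotation 21789 probe sets had exactly 1 symbol, and 1621 with several were left out of the gene test. The brightest probe set by mean stood for each of 19938 genes. The difference between groups was fitted in limma (version 3.58.1, R 4.3.3) by lmFit and eBayes with an intensity trend and no further covariate, and p was adjusted over all genes by Benjamini-Hochberg. Adjusted p-values are from this fit unless another is named beside them. Differences of other probe sets came from the same model over all probe sets. The number of arrays limits the precision. In simulated data 200 of 19938 genes were changed, in equal numbers by 1.5, 2, 3 and 4-fold. The fit passed 42.9% of 1.5-fold and 95.1% of 2-fold changes at an adjusted p under 0.05. The larger changes ease the adjusted threshold for the smaller ones. The noise was normal and genes at background took the full shift too, so these shares need not hold for these arrays.

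Genes named with values were the 12 members with the smallest p, the 12 brightest and 9 measured factors named in advance by role. In each pathway list up to 3 genes with the smallest p were named, and Ppp1r15b was added because its groups did not overlap. The members and lists were chosen with earlier results of these data known. Promoter sequences and motif counts used RefSeq starts on GRCm38.p6, and the motifs were chosen after the sequences were seen. Alternatives changed the scaling, array weights, variance model, filter on dim genes or choice of probe set, added a replicate block, or left out each array. The background limit rests on 1194 receptor genes.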

Additional observations from a re-analysis of the deposited data

How the results depend on the processing

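Adjusted calls among the 59 genes numbered 0 in the main comparison and in all 16 other fits. With an unadjusted p under 0.05 the main comparison had 7 genes (all genes 5.56%). The number was 4 with the ordinary linear model (all genes 5.2%). It was 4 of the 29 genes kept when a signal above the background limit on at least 3 arrays was asked for (all genes so kept 5.72%). It was 5 to 9 when any 1 array was left out (all genes 4.57% to 6.98%). At a stricter p under 0.01 in the main fit it was 1, Eef1a1. The share of all genes under 0.01 was not counted, so this 1 cannot be set against it. With a p under 0.05 and a 1.5-fold difference both required it was 1 (all genes 0.256%). That last count was 0 with the ordinary linear model (all genes 0.0903%) and 0 with own-chromosome probe sets (all genes 0.251%). When any 1 array was left out it was 0 to 2 (all genes 0.286% to 0.547%). Genes without overlap between the groups numbered 10 (all genes 10.7%), and 5 of the 29 brighter genes (all genes so kept 10.5%). Without any 1 array they numbered 13 to 21 (21 without normal replicate 1 and 21 without normal replicate 2). Fewer arrays make separation easier, and the share over all genes was then 19.6% to 22.4%. Genes above background on all arrays numbered 17, and 2 with the 99th percentile of the receptor genes as the limit, so the statements on detection rest on that choice. Of 341 alternative values of the 22 named genes, 335 kept their sign and 6 did not, all of them with an array left out. Many of the 335 could not change sign. The variance models, the replicate block and the filters on dim genes leave the difference as it was, as does the choice of probe set for genes with 1. Among the genes that changed sign, Eef1d ranged from -0.21 to 0.067, Pabpc1 from -0.047 to 0.40, Eef2 from -0.0064 to 0.41 and Eif5a from -0.093 to 0.34. Eef1d was at 0.0066 without diabetic replicate 1, 0.026 without normal replicate 1 and 0.067 without normal replicate 3. Same-numbered arrays did not deviate together (correlations over genes of -0.018, 0.0078 and 0.014), so the numbers give no pairing. With the replicate block 8 genes had an unadjusted p under 0.05 (all genes 5.75%) and 0 an adjusted one.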

Other observations

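Probe sets that the annotation gives to several genes were left out of the comparison. Those listed for Eif1a share it with a cluster of related genes (Gm21319, Gm4027, Gm2022, Gm8300, BB287469, Gm5662 and Gm5039). The brightest of these 4 probe sets was at 2.21, 2.24 and 2.29 on diabetic arrays and 2.61, 2.51 and 2.35 on normal arrays, above the background limit on all 6 and without overlap between the groups. Its difference was -0.25 (SE 0.12, adjusted p 0.877 over all probe sets in limma), while the other 3 differed by -0.067, -0.028 and -0.043. The 2 probe sets shared by Eif3j1 and Eif3j2 differed by -0.048 and -0.055.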
